A study of Rattus norvegicus with 12 samples.

Results

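The AP-1 and immediate early factors examined here were 10 genes: the Fos family members Fos, Fosb, Fosl1 and Fosl2, the Jun family members Jun, Junb and Jund, and the related factors Atf3, Egr1 and Myc. They were picked by name: AP-1 is known to share enhancers with TEAD, the DNA-binding partner of Yap and Wwtr1, and Egr1 and Myc belong to the same early response to stimulation. All 10 were among the 12271 genes in the table, and all 10 passed the minimum mean of 10 normalized counts that left 11871 genes for testing.

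RNA was sequenced from cardiac fibroblasts of the ventricles of Sprague Dawley rats at postnatal day 2, cultured in 15% serum and transfected after 16 h, per the sample labels. Cells received negative siRNA (a pair of universal negative control siRNAs, the controls here), Yap siRNA, Wwtr1 siRNA or Yap+Wwtr1 siRNA, with 2 siRNAs per target at 25 nM each, and were collected 48 h after transfection. Each of the 4 groups had 3 libraries, which the study made from separate litters. The siRNA label of the Yap+Wwtr1 group names only Wwtr1 siRNAs, so that group rests on the sample titles, and no library came from cells without siRNA. If both targets were given their siRNAs at 25 nM each, that group received more siRNA than the others, with no control of matching load. A higher load and the loss of both genes could then not be told apart.

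AP-1 is a dimer of a Jun protein with a Fos, Jun or ATF protein, and it binds DNA through a leucine zipper and basic region. Many of these genes are immediate early genes: serum, growth factors, stretch or stress switch on their transcription within minutes through MAP kinases, serum response factor and ternary complex factors, and their messages decay fast. Egr1 is a zinc finger factor of the same early wave, Atf3 is a stress-induced member of the ATF family that can pair with Jun proteins, and Myc pairs with Max to drive ribosome biogenesis and growth. In fibroblasts these factors take part in proliferation and matrix production. Only messenger RNA was measured here, not protein, phosphorylation or binding to DNA.

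Promoter sequences (RefSeq, assembly GRCr8) from 250 bases before to 50 bases after the annotated start were at hand for 6 of the 10 genes: Fosb, Fosl1, Fosl2, Junb, Jund and Egr1. Fos, Jun, Atf3 and Myc had no entry. Both strands were searched for the AP-1 motif TGANTCA, the cyclic AMP response element TGACGTCA, the TEAD motif GGAATG, the E-box CACGTG and the CArG box of serum response factor. None of the 6 windows held TGANTCA or GGAATG, which 7.33% and 13.9% of all 27457 promoters of the same length held. Jund held TGACGTCA (1.91% of all promoters), and Egr1 held 2 CArG boxes (at least 1 in 1.64% of all promoters). None of the 6 held CACGTG, against 6.65% of all promoters. The following 2 windows are shown because Junb and Jund are the Jun genes with an entry. Capitals mark TGACGTCA, and Junb has no capitals because it held none of the motifs. Junb lies at chr19:40080876-40081175 on the plus strand and Jund at chr16:18769722-18770021 on the minus strand.
Junb: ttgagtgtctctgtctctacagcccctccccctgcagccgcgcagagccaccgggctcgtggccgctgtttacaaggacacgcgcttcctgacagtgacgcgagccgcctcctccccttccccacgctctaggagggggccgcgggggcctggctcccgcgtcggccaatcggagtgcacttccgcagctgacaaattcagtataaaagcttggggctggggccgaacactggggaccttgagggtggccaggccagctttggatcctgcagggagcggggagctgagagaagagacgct
Jund: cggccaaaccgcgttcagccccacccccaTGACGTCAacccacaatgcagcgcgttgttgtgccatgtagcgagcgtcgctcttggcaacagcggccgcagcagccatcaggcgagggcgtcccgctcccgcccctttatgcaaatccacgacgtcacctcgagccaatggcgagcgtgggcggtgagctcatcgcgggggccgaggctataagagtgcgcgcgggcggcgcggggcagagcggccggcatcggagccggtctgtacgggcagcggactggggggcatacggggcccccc

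Normalized library totals ran from 34.2 to 37.2 M. Yap1 was 2984 to 3776 normalized counts in the controls and 532 to 625 with Yap siRNA, and Wwtr1 was 2280.0 to 2565 and, with Wwtr1 siRNA, 524 to 637. In the Yap+Wwtr1 group Wwtr1 was 818, 731 and 1056, above every Wwtr1 siRNA library (log2 fold change 0.59, limma adjusted p 0.00804), so the 2 groups differed in the depth of that knockdown too. In the Yap+Wwtr1 group, replicate 3 stood apart: Yap1 was 1474 there against 713 and 739 in replicates 1 and 2, and the summed level of the 9 macrophage markers in the table was 45729 against 6472 and 13187 (negative siRNA, 21102 to 30639). All 9 interferon response genes tested rose in every knockdown, with sums of 2536 to 5683 with negative siRNA, 18269 to 58095 with Yap siRNA, 15386 to 78553 with Wwtr1 siRNA and 85716 to 113957 in the Yap+Wwtr1 group. Endothelial markers summed to 1258 to 1676 with negative siRNA and 2109 to 2971 in the Yap+Wwtr1 group, where 5 of 10 rose, and cardiomyocyte markers to 42417 to 74282 and 71009 to 92970, where 3 of 10 rose (17.1% of all genes rose in this comparison). Without replicate 3, 8 of 9 macrophage markers were lower than in the controls, and 3 of 8 endothelial and 1 of 10 cardiomyocyte markers rose. In that fit 4051 of 11837 genes were called. Of 10 smooth muscle and pericyte markers 4 rose and 2 fell, with sums of 124116 to 126229 in the controls and 107304 to 132526 in the Yap+Wwtr1 group. With Wwtr1 siRNA the summed macrophage markers (11067 to 18903) lay below every control and the smooth muscle and pericyte markers (152762 to 164658) above every control. None of the 9 macrophage or 10 cardiomyocyte markers was called there, and 1 of 10 smooth muscle and pericyte markers rose. With the replicate number as a block and the Yap+Wwtr1 libraries left out (the replicate block), 21.7% of all genes were called, and 6 macrophage markers fell, 5 smooth muscle and pericyte markers rose, and 6 cardiomyocyte markers rose and 2 fell. The 10 fibroblast markers were abundant in every library (sums of 2583690 to 3782240), and 4 rose and 2 fell in the Yap+Wwtr1 group. With Yap siRNA their sums (3522240 to 3685310) lay above every control (2792690 to 3288330), and 1 rose, or 5 under the replicate block (16.3% of all genes called). The smooth muscle and pericyte sums (100554 to 107869) lay below every control with Yap siRNA, and the endothelial sums lay above every control with Yap siRNA (1785 to 2089) and with Wwtr1 siRNA (1686 to 1791). In these lists no marker gene in the table had a mean of 0 with negative siRNA, and the lowest was endothelial Emcn at 5.81. The part of these differences in the results on the 10 factors was not tested. In bulk RNA, fewer cells of a type and less RNA per cell cannot be told apart.

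The 10 factors were all expressed under negative siRNA, and their spread over the 12 libraries was modest. The ratio of the highest to the lowest library ran from 1.45 for Fosl2 to 3.08 for Fosb, and the ratio of the highest to the lowest group mean from 1.20 for Fosl2 to 1.88 for Atf3. These values are not scaled to gene length, so levels are compared here between libraries and not between genes.

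**Figure D1:**
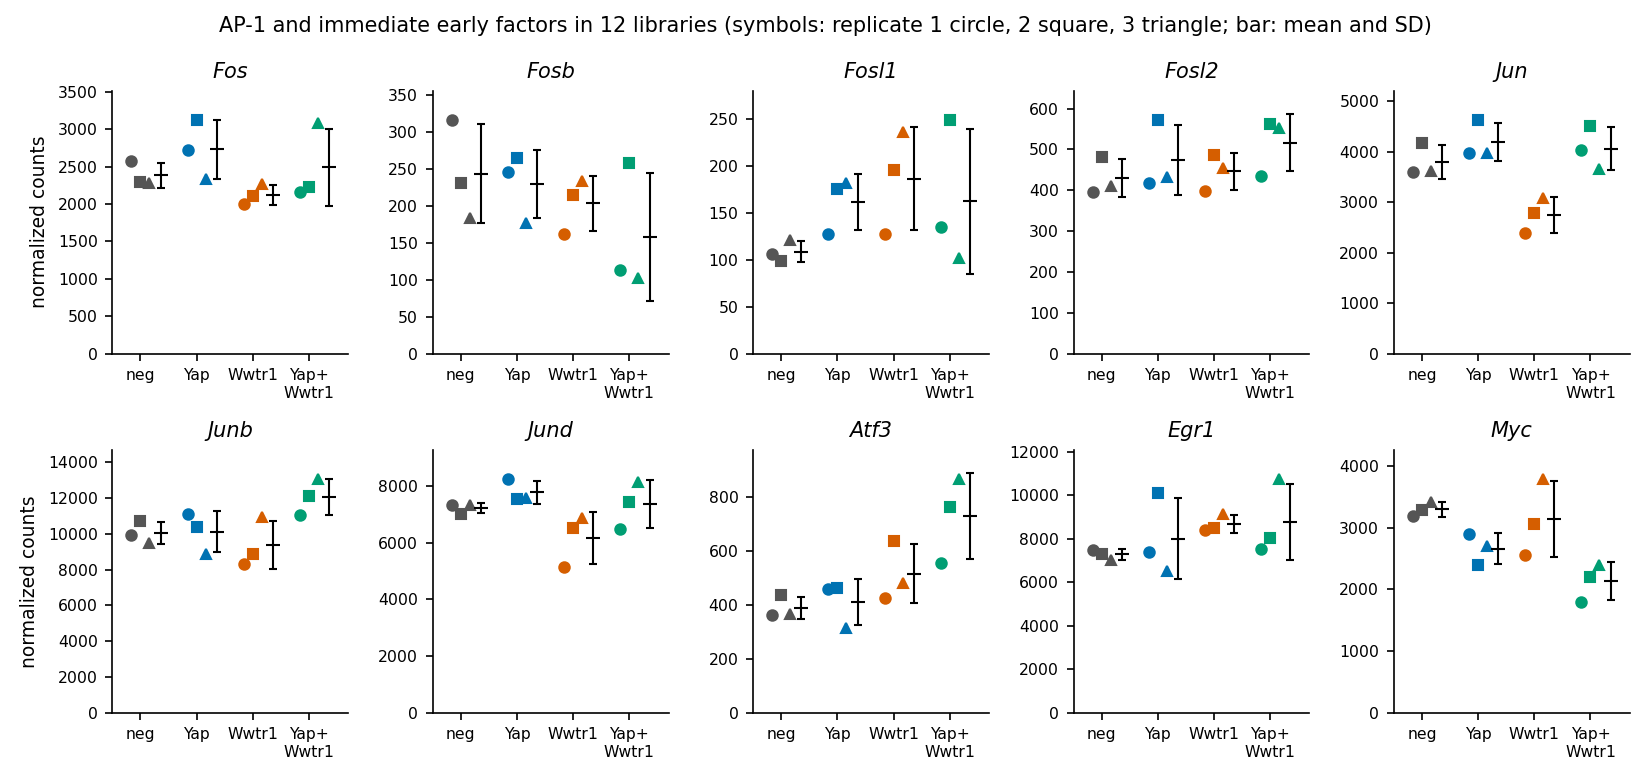
Normalized counts of the 10 factors (y axis, from 0, a separate scale for each gene) in the 12 libraries, grouped by siRNA on the x axis (neg is negative siRNA). Symbols are replicates, and the bar beside each group is the mean with its SD (n = 3). Jun sits lower with Wwtr1 siRNA (2380.1 to 3089) than in the other 9 libraries, and by group mean Atf3 is highest and Myc lowest in the Yap+Wwtr1 group.

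Each knockdown was first compared with negative siRNA, with limma on log2(normalized count + 1) and p-values adjusted over all genes tested. Yap siRNA alone changed none of the 10 factors past an adjusted p of 0.05, against 4.80% of all genes tested (3.02% higher and 1.78% lower, and 111 to 766 genes, against 570, when 1 library was left out), and 1 of them (Myc) had an unadjusted p under 0.05. The largest difference was in Fosl1, with a log2 fold change of 0.56 (limma adjusted p 0.367). Libraries of the 2 groups did not overlap for 3 factors (Fosl1, Jund and Myc), a separation seen in 26.1% of all genes. In the controls Myc was 3186, 3279.6 and 3423 normalized counts, and after Yap siRNA it was 2894, 2390.3 and 2703 (log2 fold change -0.31 with an SE of 0.14, limma adjusted p 0.240). Every Yap siRNA library was thus below every negative siRNA library for Myc, but the difference did not pass the test. The known Yap targets Ccn1 and Ccn2, whose log2 fold changes were -0.52 and -0.81 (limma adjusted p 0.0407 and 0.0342), passed the test.

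With Wwtr1 siRNA alone, Jun fell and the other 9 factors did not pass the test (1 of 10 called, against 8.96% of all genes, or 3.96% counting those that were lower). Jun, the founding AP-1 subunit, was 3589.5, 4172 and 3619.5 normalized counts with negative siRNA. It was 2380.1, 2786 and 3089 with Wwtr1 siRNA, so that the highest of these libraries lay below the lowest control. On the log2 scale the difference was -0.47 (SE of 0.11, limma adjusted p 0.0228), or 0.723 of the control level. Leaving out 1 library lost the call for Jun in 4 of 12 fits, those without negative siRNA replicate 2 or 3 or Wwtr1 siRNA replicate 1 or 2 (limma adjusted p 0.0858, 0.0538, 0.0944 and 0.0663), while the log2 fold change stayed between -0.56 and -0.37.

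Other factors differed between Wwtr1 and negative siRNA without passing the test. Libraries did not overlap for 5 of 10 factors (Fos, Fosl1, Jun, Jund and Egr1), against 32.7% of all genes. Fosl1, which encodes Fra-1, was 106, 99.0 and 121 normalized counts in the controls and 127, 196 and 236 with Wwtr1 siRNA (log2 fold change 0.73 with an SE of 0.32, limma adjusted p 0.184). Replicate numbers paired the libraries of negative, Yap and Wwtr1 siRNA, and with that pairing as a block, in a fit of these 3 groups without the Yap+Wwtr1 libraries, 2 of 10 factors were called: Jun, and Fosl1 as higher (limma adjusted p 0.0187), where 21.7% of all genes were called. Jund was 7318, 7002 and 7337 with negative siRNA and 5141, 6498 and 6862 with Wwtr1 siRNA (log2 fold change -0.24, limma adjusted p 0.204). The log2 fold changes of Fos, Junb and Myc were -0.17, -0.11 and -0.09, and those of Atf3 and Egr1 were 0.39 and 0.25.

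Knockdown of both genes moved 2 of the 10 factors past the threshold, 1 up and 1 down, in a comparison where 32.8% of all genes were called (17.1% higher and 15.6% lower). Atf3 rose and Myc fell. The median log2 fold change of the 10 factors was 0.17 (0.00 over all genes tested), and their median absolute log2 fold change of 0.26 lay beside 0.27 over all genes tested. Libraries of the 2 groups did not overlap for 4 factors (Junb, Atf3, Egr1 and Myc), against 44.6% of all genes.

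Atf3 was 364, 436 and 367 normalized counts in the controls and 555, 765 and 869 in the Yap+Wwtr1 group. Each double knockdown library was above each control, and on the log2 scale the difference was 0.89 (SE of 0.21, limma adjusted p 0.00669), a 1.85-fold rise with a 95% interval of 1.35 to 2.53. The rise was called in all 21 alternatives run, with log2 fold changes from 0.75 to 1.07. Without replicate 3 of the Yap+Wwtr1 group, it was 0.75 (limma adjusted p 0.0207). Atf3 was 459, 464 and 313 after Yap siRNA alone and 427, 639 and 483 after Wwtr1 siRNA alone, both overlapping the controls.

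Myc fell to 1801, 2193 and 2403 normalized counts in the Yap+Wwtr1 group, against 3186, 3279.6 and 3423 with negative siRNA. The highest double knockdown library was far below the lowest control. On the log2 scale the difference was -0.64 (SE of 0.14, limma adjusted p 0.00434), which is 0.643 of the control level (95% interval 0.522 to 0.792). It was called in all 21 alternatives and stayed between -0.73 and -0.52. Wwtr1 siRNA alone gave the widest spread of any group for Myc, 2565, 3060.4 and 3790.3, and overlapped the controls.

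**Figure D2:**
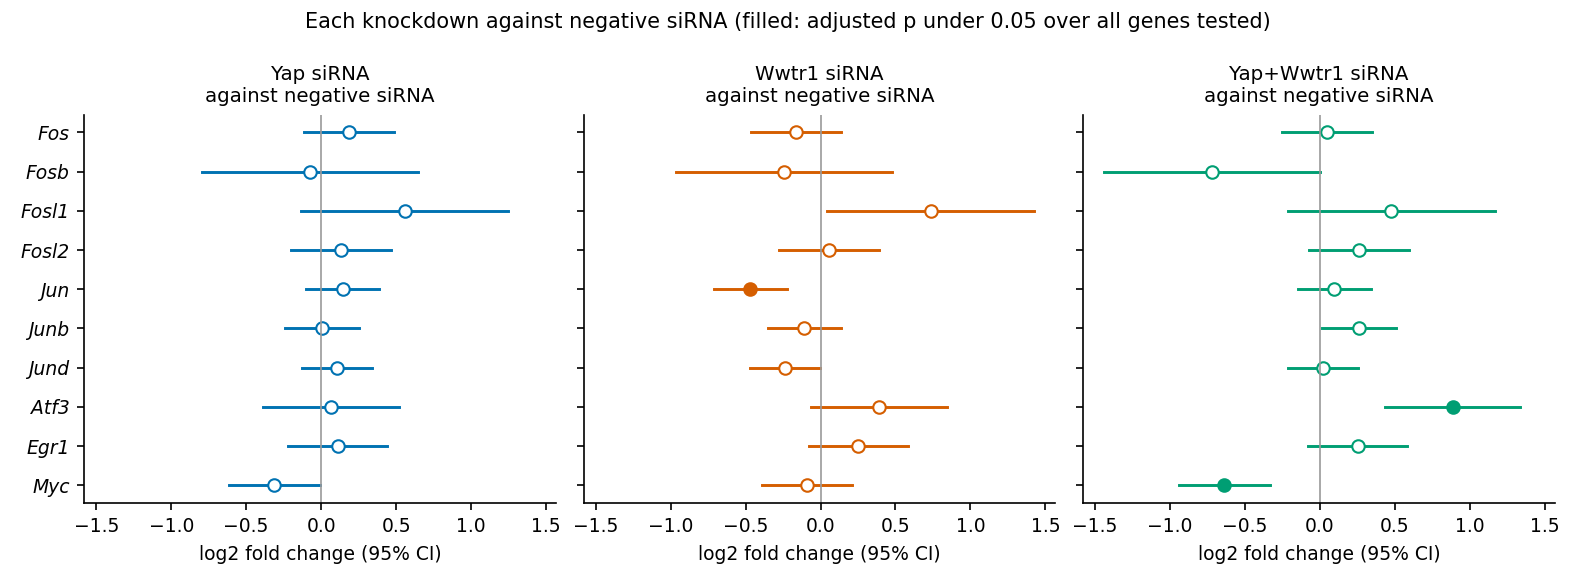
Log2 fold change of each factor (x axis, point, with its 95% confidence interval as a line) for each knockdown against negative siRNA, from limma. Filled points had an adjusted p under 0.05: none with Yap siRNA, Jun with Wwtr1 siRNA (-0.47), and Atf3 (0.89) and Myc (-0.64) with Yap+Wwtr1 siRNA.

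The knockdowns were then compared with each other, which asks whether loss of one coactivator, the other or both acted differently on these genes. Jun was called in both comparisons with Wwtr1 siRNA. It was 3970.1, 4632 and 3971 normalized counts with Yap siRNA and 4023, 4500.3 and 3660.1 with Yap+Wwtr1 siRNA, against 2380.1 to 3089 with Wwtr1 siRNA. Neither the Yap nor the Yap+Wwtr1 libraries overlapped the Wwtr1 libraries, and both groups overlapped the controls. Jun was higher with Yap siRNA than with Wwtr1 siRNA by 0.61 on the log2 scale (SE of 0.11, limma adjusted p 0.00703), as the 1 factor of 10 called there (background 8.79%, with 4.57% higher and 4.22% lower). It was higher with Yap+Wwtr1 than with Wwtr1 siRNA by 0.56 (limma adjusted p 0.00499). Both calls held in every alternative run. By group mean the order for Jun was Wwtr1 siRNA, negative siRNA, Yap+Wwtr1 siRNA and Yap siRNA from lowest to highest, and among neighbours in that order only Wwtr1 and negative siRNA differed past the threshold.

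In the comparison of Yap with Wwtr1 siRNA, Fos and Jund also had libraries that did not overlap. Fos, the prototype immediate early gene, was 2728, 3129 and 2335 normalized counts after Yap siRNA and 2002, 2111 and 2267 with Wwtr1 siRNA (log2 fold change 0.35 with an SE of 0.14, limma adjusted p 0.139). Jund was 8243, 7534 and 7557 with Yap siRNA and 5141, 6498 and 6862 with Wwtr1 siRNA, a log2 fold change of 0.34 (limma adjusted p 0.0697). After Yap+Wwtr1 siRNA Jund was 6477, 7430.2 and 8148, which spanned the controls. With the replicate block over the 3 paired groups, without the Yap+Wwtr1 libraries, Fos (limma adjusted p 0.0263) and Jund (0.0203) were called too, so that 3 of 10 factors were higher with Yap siRNA, where 23.0% of all genes were called. Leaving out Yap+Wwtr1 replicate 3, which is in neither group but enters the shared estimate of the spread, likewise gave 3 calls (limma adjusted p 0.0447 for Fos and 0.0458 for Jund), where 1413 of 11837 genes were called. These 2 and Jun were the 3 of 10 factors without overlap, against 31.9% of all genes.

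Against Wwtr1 siRNA, where the Wwtr1 message itself was lower than in the Yap+Wwtr1 group, the Yap+Wwtr1 group had 3 of 10 factors called, 2 higher (Jun and Junb) and 1 lower (Myc), where 19.9% of all genes were called (9.75% higher and 10.1% lower). These 3 were also the factors whose libraries did not overlap, against 37.3% of all genes. Junb, which encodes a Jun protein that often restrains Jun, was 8324, 8873 and 10916 normalized counts with Wwtr1 siRNA and 11025, 12086 and 13058 with Yap+Wwtr1 siRNA. Junb was 9923, 10728.5 and 9483 in the controls and 11106, 10358 and 8856 after Yap siRNA, which overlapped both. The Wwtr1 and Yap+Wwtr1 groups did not overlap, by a narrow gap, and on the log2 scale the difference was 0.37 (SE of 0.11, limma adjusted p 0.0381). That call was lost without negative siRNA replicate 1, Wwtr1 siRNA replicate 1 or 2, or Yap+Wwtr1 replicate 2 or 3 (limma adjusted p 0.0518, 0.123, 0.121, 0.0851 and 0.0973), with the compared groups alone or no trend (0.0742 and 0.0667), and with upper-quartile scaling, where it lay just over the threshold. For Myc the difference was -0.55 on the log2 scale (SE of 0.14, limma adjusted p 0.0167), a call lost without Wwtr1 siRNA replicate 3 (0.0681) or Yap+Wwtr1 replicate 1 (0.0589) or with the compared groups alone (0.0631). For Atf3 the difference was 0.49 (limma adjusted p 0.114), and without Yap+Wwtr1 replicate 1 it was 0.68 (0.0468).

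Against Yap siRNA, the Yap+Wwtr1 group had 1 of 10 factors called (background 13.8%, with 6.83% higher and 6.96% lower), and that was Atf3. It was higher by 0.82 on the log2 scale (SE of 0.21, limma adjusted p 0.0227), with 555 to 869 normalized counts against 313 to 464 and no overlap, as for 30.5% of all genes. The call was lost without Yap siRNA replicate 3, Yap+Wwtr1 replicate 2 or Yap+Wwtr1 replicate 3 (limma adjusted p 0.0987, 0.0703 and 0.0550) and with the compared groups alone (0.0667). By group mean Atf3 stood lowest with negative siRNA, then Yap, Wwtr1 and Yap+Wwtr1 siRNA, and no neighbours in that order differed past the threshold. For Myc the order was Yap+Wwtr1 siRNA lowest, then Yap, Wwtr1 and negative siRNA highest, again with no call between neighbours.

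**Figure D3:**
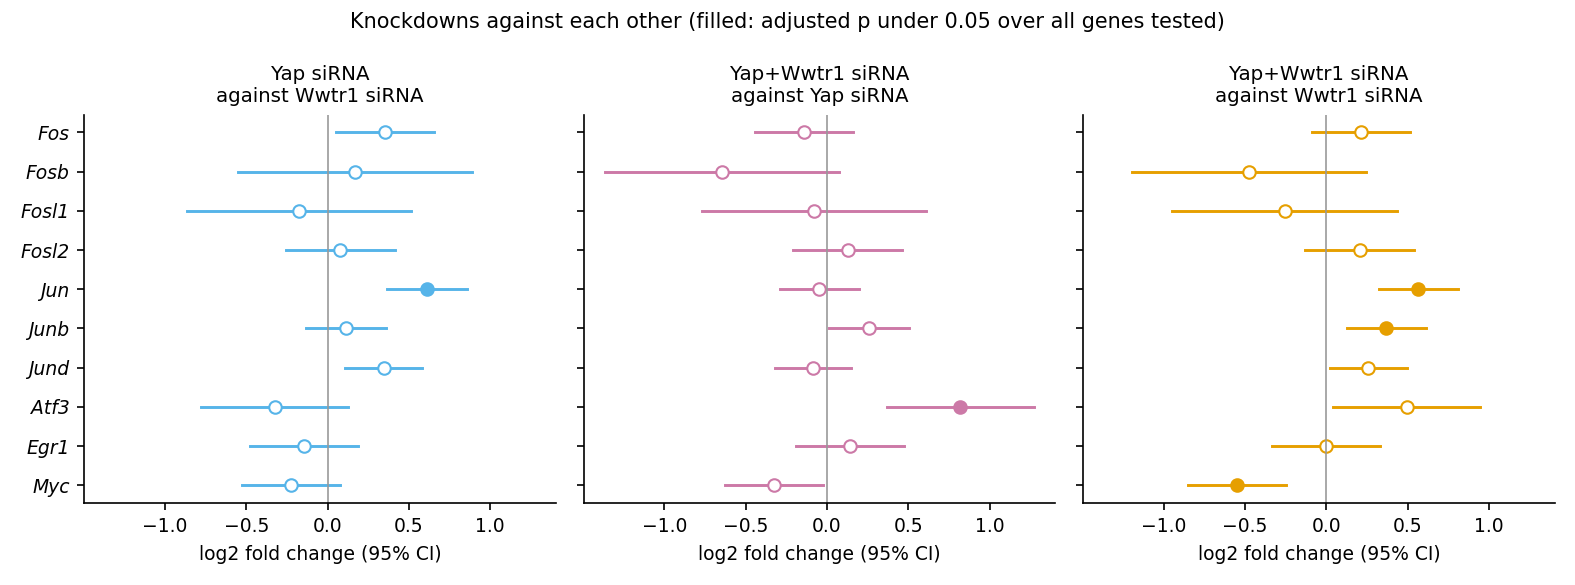
Log2 fold change of each factor (x axis, point, with its 95% confidence interval as a line) between knockdowns, from limma. Filled points had an adjusted p under 0.05. Jun is above 0 in both comparisons with Wwtr1 siRNA (0.61 and 0.56) and near 0 (-0.05) between Yap+Wwtr1 and Yap siRNA.

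Whether both losses added up on the log2 scale was tested as an interaction, which takes the sum of both single effects from that of the double knockdown. None of the 10 factors was called (limma), against 1.03% of all genes (0.421% higher and 0.607% lower), and 2 had an unadjusted p under 0.05. These were Jun, with an interaction of 0.42 (95% interval 0.08 to 0.77, limma adjusted p 0.245), and Junb, with 0.37 (0.02 to 0.71, limma adjusted p 0.323). Of the 10, the largest value was in Fosl1 (-0.81, limma adjusted p 0.460), whose interval ran from -1.79 to 0.16. Both targets were less depleted in the Yap+Wwtr1 group than in the single knockdowns. Yap1 was 713 to 1474 normalized counts there against 532 to 625 with Yap siRNA, and Wwtr1 731 to 1056 against 524 to 637 with Wwtr1 siRNA. The interaction thus does not compare equal losses, and the part of this difference in depth was not tested.

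Across the 6 pairs of groups, 8 of 60 member comparisons were called: 3 for Jun, 2 each for Atf3 and Myc, and 1 for Junb. In these 6 comparisons 4.80% to 32.8% of all genes were called. Fos, Fosb, Fosl1, Fosl2, Jund and Egr1 had none. The half-width of the 95% interval of the log2 fold change gives the precision. It is not the limit for a call, since calls were adjusted over all genes. Jund, for one, differed by 0.34 between Yap and Wwtr1 siRNA without a call (limma adjusted p 0.0697). Half-widths were 0.243, 0.245 and 0.235 for Jun, Junb and Jund, 0.30 for Fos and Myc, and 0.33 for Fosl2 and Egr1. They were 0.45 for Atf3, and 0.69 and 0.72 for the low and variable Fosl1 and Fosb. A missing call in Fosl1 or Fosb therefore leaves room for larger differences than one in Jund.

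Of the Fos family, Fosb was the most variable. Its libraries were 316, 231 and 183 normalized counts in the controls and 112, 258 and 103 with Yap+Wwtr1 siRNA (log2 fold change -0.72 with an SE of 0.33, limma adjusted p 0.118). Replicate 2 of the Yap+Wwtr1 group stood well above the other two, and without it the log2 fold change was -1.14 (limma adjusted p 0.00932). Without that library Fosb was also lower with Yap+Wwtr1 than with Yap siRNA (-1.06, 0.0306) and than with Wwtr1 siRNA (-0.89, limma adjusted p 0.0426). Fos was 2579.8, 2298 and 2280.0 with negative siRNA and 2164, 2228 and 3089.7 with Yap+Wwtr1 siRNA (log2 fold change 0.05, limma adjusted p 0.826). Fosl1 was 127, 176 and 182 after Yap siRNA and 135, 249 and 102 after Yap+Wwtr1 siRNA, where replicate 2 was again the highest and replicate 3 lay among the controls (log2 fold change 0.48, limma adjusted p 0.274). Fosl2, which encodes Fra-2, kept within 396 to 573 in all 12 libraries, and its log2 fold changes against negative siRNA were 0.13, 0.06 and 0.26 with Yap, Wwtr1 and Yap+Wwtr1 siRNA.

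Egr1 was 7502, 7315 and 7022 normalized counts in the controls, and 7382, 10083 and 6512 after Yap siRNA. It was 8399, 8490.4 and 9141 after Wwtr1 siRNA and 7523, 8042 and 10747 after Yap+Wwtr1 siRNA. Each Wwtr1 and each Yap+Wwtr1 library was above each control, in the latter by a very small margin at its lowest. The log2 fold changes for Egr1 were both 0.25 (limma adjusted p 0.349 and 0.230), and the first passed only when negative and Wwtr1 siRNA were fitted alone (0.0379). In Yap+Wwtr1 replicate 3, the library that stood apart, Fos, Junb, Jund, Atf3, Egr1 and Myc were each the highest of their group and Fosb, Fosl1 and Jun the lowest.

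Genes around these factors were described from lists by role, with the share of all genes called given beside the counts. Without Yap+Wwtr1 replicate 3 the counts in the Yap+Wwtr1 group were 2 up and 3 down among dimer partners, 9 and 8 among other immediate early genes, 2 and 6 among feedback inhibitors, 5 and 5 among upstream genes, 2 and 4 in the Egr1 list and 3 and 1 among Myc partners, where 4051 of 11837 genes were called. Among genes of other bZIP proteins that can pair with or oppose AP-1, 2 of 11 rose and 3 fell in the Yap+Wwtr1 group (18.2% and 27.3%, against 17.1% and 15.6% of all genes). Maf, a bZIP factor, rose by a log2 fold change of 1.60 (limma adjusted p 7.59e-05). The small Maf genes Maff and Mafk and the AP-1 repressor gene Jdp2 fell, with log2 fold changes of -0.83, -0.71 and -0.55. Maf also rose with Yap siRNA alone (log2 fold change 0.78, limma adjusted p 0.0336), with 959 to 1369 normalized counts there, where the macrophage marker sums were 18143 to 26803. Maff fell with Yap siRNA alone (log2 fold change -0.78, limma adjusted p 0.00914) and was 487 to 587 normalized counts there, against 793 to 982 with negative siRNA and 744 to 972 with Wwtr1 siRNA. Maf was 1882, 1758 and 2689.5 in Yap+Wwtr1 replicates 1, 2 and 3 and at most 800.4 in the controls, and the macrophage marker sums of the same 3 libraries were 6472, 13187 and 45729. Macrophages express Maf, and the part of these cells in its rise was not tested.

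Of the other immediate early genes, 9 of 35 rose and 6 fell with Yap+Wwtr1 siRNA (25.7% and 17.1%, against 17.1% and 15.6% of all genes). With Yap siRNA 1 rose and 4 fell, against 3.02% and 1.78% of all genes, and with Wwtr1 siRNA 5 rose and 2 fell, where 8.96% of all genes were called and 3.96% were lower. Nr4a1, an orphan nuclear receptor of the early response, was 639 to 1192 normalized counts in the controls and 3413 to 4382 with Yap+Wwtr1 siRNA (log2 fold change 2.18, limma adjusted p 1.66e-05). It also rose with each single siRNA (0.74 and 1.12). Nr4a2 rose by a log2 fold change of 1.04 and Zfp36l1, which promotes decay of AU-rich messages, by 1.02. The kinase gene Plk2 fell, with a log2 fold change of -1.41, as did the stress genes Gadd45b and Gadd45g (-0.95 and -0.90). Under the replicate block, the counts were 6 up and 7 down with Yap siRNA and 8 up and 8 down with Wwtr1 siRNA, where 16.3% and 21.7% of all genes were called.

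Feedback inhibitors of MAP kinase signalling, which early signalling itself induces, had 6 of 17 lower and 2 higher in the Yap+Wwtr1 group (background 15.6% lower and 17.1% higher). Spry1 fell from 2657 to 3478 normalized counts with negative siRNA to 1031 to 1295 with Yap+Wwtr1 siRNA (log2 fold change -1.40, limma adjusted p 1.50e-05), and it was 1629 to 1652 with Wwtr1 siRNA alone. The phosphatase gene Dusp8 and Spry4 fell (log2 fold changes -0.97 and -0.96), while Dusp5 and Dusp16 rose (1.11 and 0.52). Of the kinases and factors upstream, 4 of 24 rose and 5 fell. The transcription factor gene Srf, which switches on Fos and Egr1 through CArG boxes, was 5922 to 6327 with negative siRNA and 3846 to 4438 with Yap+Wwtr1 siRNA (log2 fold change -0.58, limma adjusted p 0.000691). The kinase genes Rps6ka5 and Mapk8 fell (-0.68 and -0.40), and Map2k3, Elk3 and Map2k1 rose (0.56, 0.35 and 0.32).

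Genes known as AP-1 targets did not move as one. In the Yap+Wwtr1 group 8 of 28 rose and 4 fell (28.6% and 14.3%, against 17.1% and 15.6% of all genes). The oxidative stress genes Hmox1 and Nqo1, which are also induced by other bZIP factors, rose by log2 fold changes of 1.65 and 0.99. Lox, which encodes a collagen crosslinking enzyme, and the growth factor gene Hbegf fell, with log2 fold changes of -0.87 and -0.75. The median log2 fold change of the list was 0.26, and without Yap+Wwtr1 replicate 3 it was -0.07 with 8 higher and 6 lower (4051 of 11837 genes called in that fit). With Wwtr1 siRNA, where Jun fell, 5 of these genes rose and none fell, where 8.96% of all genes were called and 3.96% were lower. With Yap siRNA 2 rose and none fell, against 3.02% and 1.78% of all genes. Under the replicate block 6 rose and 6 fell with Wwtr1 siRNA, and 4 rose and 5 fell with Yap siRNA, where 21.7% and 16.3% of all genes were called.

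Ccn1 and Ccn2, matricellular genes known as targets of Yap with TEAD that also carry AP-1 sites, fell in the Yap+Wwtr1 group with log2 fold changes of -1.63 and -1.85 (limma adjusted p 9.76e-06 and 3.93e-05). Of the TEAD genes themselves, Tead2 fell with Wwtr1 siRNA (log2 fold change -0.63, limma adjusted p 0.00784) and with Yap+Wwtr1 siRNA (-0.39, limma adjusted p 0.0287). Tead1 and Tead3 did not pass in any comparison with negative siRNA, and Tead4 was not analysed here. Among Egr1 corepressors and known Egr1 targets, 2 of 11 rose and 3 fell with Yap+Wwtr1 siRNA (18.2% and 27.3%, against 17.1% and 15.6% of all genes). The phosphatase gene Ptpn1 and the corepressor gene Nab1 rose by log2 fold changes of 0.88 and 0.25, and the growth factor gene Pdgfa and the matricellular gene Thbs1 fell (-1.12 and -1.08).

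**Figure D4:**
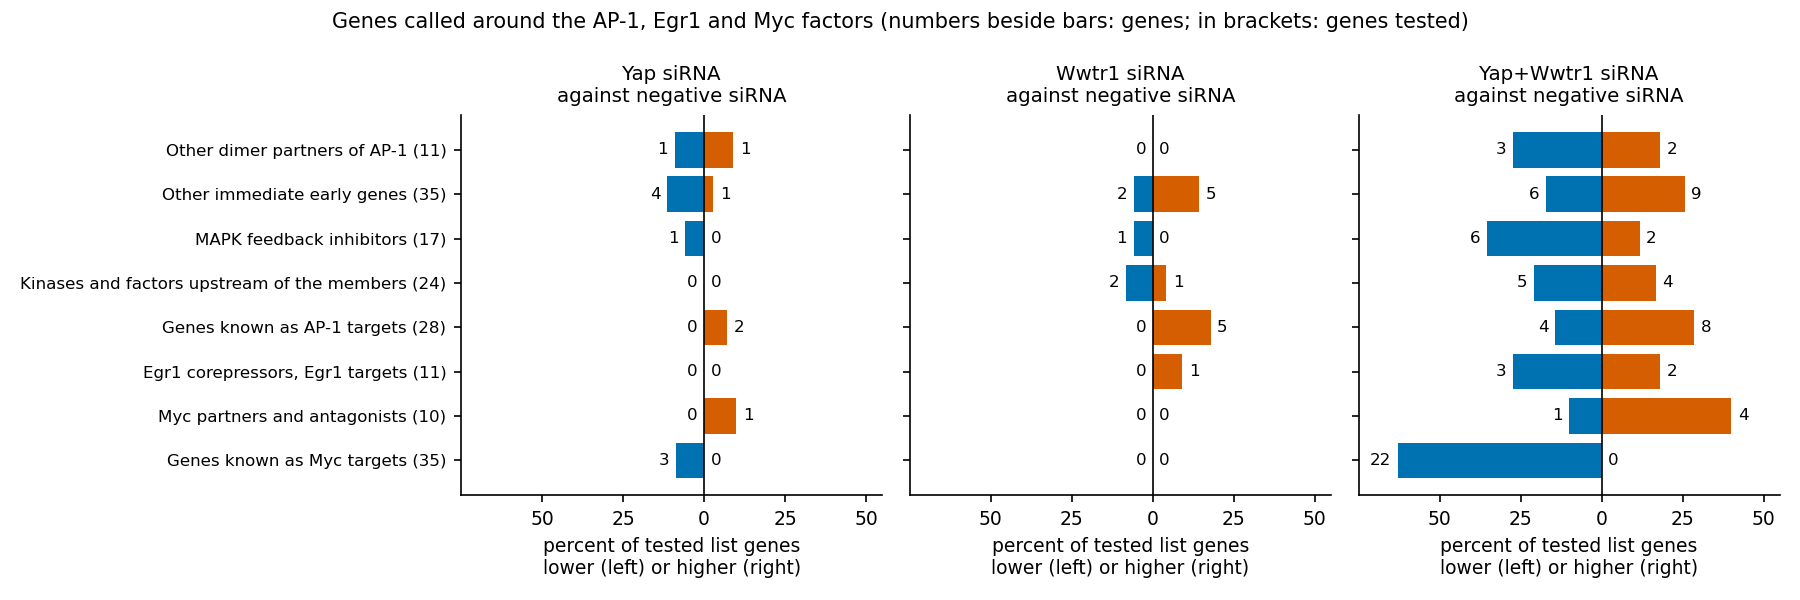
Percent of the tested genes of each list (rows, number tested in brackets) that were lower (left, blue) or higher (right, orange) than with negative siRNA at an adjusted p under 0.05, for each knockdown. Numbers beside the bars count genes. Most lists have calls on both sides with Yap+Wwtr1 siRNA, while the 22 Myc targets called were all lower.

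Genes known as Myc targets were called in 1 direction in the Yap+Wwtr1 group. Of 35 genes known as Myc targets, 22 fell and none rose in the Yap+Wwtr1 group (62.9%, against 15.6% of all genes tested called lower), and the list's median log2 fold change was -0.31 against 0.00 over all genes. The falls were modest, with log2 fold changes from -0.97 to -0.22. They included the translation repressor gene Eif4ebp1 (log2 fold change -0.97, limma adjusted p 0.000144), the nucleolar methyltransferase gene Fbl (-0.65, limma adjusted p 0.00141) and the polyamine enzyme gene Odc1 (-0.65, limma adjusted p 0.000120). Odc1 was 3269.6 to 3312 normalized counts in the double knockdown libraries and 4899 to 5599 in the controls. Without Yap+Wwtr1 replicate 3, 20 of the 35 fell and none rose, where 4051 of 11837 genes were called.

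In the single knockdowns fewer genes of this list were called. With Wwtr1 siRNA, where Myc overlapped the controls, no Myc target was called (median log2 fold change -0.04, with 3.96% of all genes called lower), and with Yap siRNA 3 fell (median -0.17, with 1.78% of all genes called lower). Under the replicate block 13 fell with Yap siRNA, and 5 fell and 1 rose with Wwtr1 siRNA, where 16.3% and 21.7% of all genes were called. Yap+Wwtr1 siRNA against Wwtr1 siRNA, the other comparison in which Myc was lower, had 17 Myc targets lower and none higher, where 10.1% of all genes were lower. Yap against Wwtr1 siRNA, where Myc was not called (log2 fold change -0.22, limma adjusted p 0.352), had 6 of the 35 lower and none higher, against 4.22% of all genes lower, and 14 lower under the replicate block, where 23.0% of all genes were called. Yap+Wwtr1 against Yap siRNA, where Myc was not called either (-0.33, limma adjusted p 0.141), had 3 lower and none higher, against 6.96% of all genes lower, and 5 lower without Yap+Wwtr1 replicate 3.

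Among Myc partners and antagonists, 4 of 10 rose and 1 fell in the Yap+Wwtr1 group, against 17.1% and 15.6% of all genes. Mxd1, Mxd4 and Mxi1, whose proteins compete with Myc for Max and repress its targets, rose by log2 fold changes of 1.16, 0.77 and 0.75 (limma adjusted p 0.000144, 0.000814 and 0.000861). Mxd1 was 488 to 529 normalized counts in the controls and 986 to 1243 with Yap+Wwtr1 siRNA. Mlx, a Max-like partner, fell (-0.27). With Yap siRNA alone Mxd4 rose (log2 fold change 0.74, limma adjusted p 0.00955), and none of these genes was called with Wwtr1 siRNA.

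**Figure D5:**
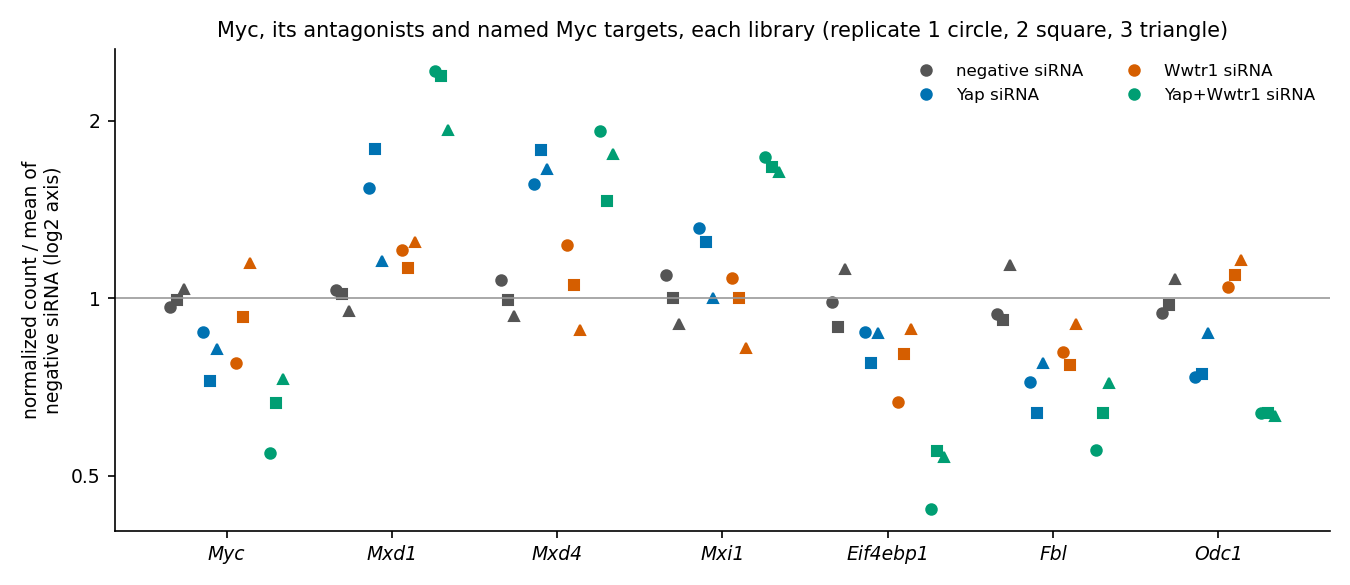
Normalized counts of Myc, 3 Max-binding antagonists and 3 Myc targets in each of the 12 libraries, divided by the gene's mean with negative siRNA (y axis, log2 scale). Colours are groups and symbols replicates. In the Yap+Wwtr1 group all libraries lie below the controls for Myc, Eif4ebp1, Fbl and Odc1 and above them for Mxd1, Mxd4 and Mxi1.

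Likeness of pattern was measured as Pearson's r of log2(normalized count + 1) over the 12 libraries, as a description without a test, since the libraries share 4 groups and one scaling. Among the 10 factors, the closest pairs were Fos with Jund (r = 0.73), Jun with Jund (0.73) and Fosl2 with Atf3 (0.70). Myc was closest to Fosb (0.50) and had negative r with Atf3 (-0.44), Fosl2 (-0.34) and Jun (-0.33). Among 10092 other genes with a mean of at least 100, Smyd2 was most like Myc (0.95), Vamp1 most like Jun (0.93) and Mfsd12 most like Fos (0.94). The lowest best match was that of Egr1 (Mcrip2, 0.81).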

How the data were processed

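RNA was sequenced from 12 cultures of rat cardiac fibroblasts, 3 in each of 4 siRNA groups whose titles give the group and the replicate number. The authors trimmed reads (Trim Galore 0.6.5, per the submitters' processing notes), aligned them to rn6 with HISAT2, estimated abundance with StringTie and normalized with DESeq2. The deposited signal values are normalized counts, one size factor per library, and 100% of 147252 values were whole multiples of one step in their library (tolerance 1e-06 of a step). Multiples of the step, which stand for reads or a count derived from coverage, totalled 33.9 to 41.1 M a library. Columns of the authors' own comparisons (fold changes and p-values) were not used, and no value column lacked a sample.

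The test was limma 3.58.1 (R 4.3.3) for the 11871 genes whose mean reached 10 normalized counts, after log2(normalized count + 1), a scale that understates changes of low genes. All 12 libraries entered 1 fit without covariates, with a mean-variance trend, and two-sided p-values were adjusted by the Benjamini-Hochberg method across these genes, with calls at an adjusted p under 0.05. The steps were tested on simulated data with known changes. Named genes are the 10 members, Yap1, Wwtr1, Tead1 to Tead4 (Tead4 was not analysed here), Ccn1, Ccn2, and from each list at most 3 that rose and 3 that fell by the most with Yap+Wwtr1 siRNA (mean of at least 100). Some genes that this rule selects are not reported here. Members and lists were chosen with earlier results of these data known.

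Same-numbered libraries of negative, Yap and Wwtr1 siRNA deviated together from their group means (9 correlations over all genes tested, 0.104 to 0.276), and the study made replicates from separate litters, so the numbers were taken to pair them. With Yap+Wwtr1 siRNA the 9 correlations ran from -0.127 to 0.180 (0.0678 to 0.180 for those with Wwtr1 siRNA). Whether the numbers pair that group is unclear. Within each group, libraries differed beyond sampling noise (chi-square per gene 20.0 to 50.4, and 123 and 128 for the pairs with Yap+Wwtr1 replicate 3). Alternatives were other pseudocounts, filters, scalings and fits, a replicate block and leaving out each library. List counts without Yap+Wwtr1 replicate 3 and under the block were added after seeing the data. The study's methods give another serum level and delay before transfection than the labels, and the series' design text speaks of myocytes. For RNA, those methods also place collection 48 h after a medium change that itself followed transfection, later than the labels give. Whether counting used the strand is not given in the sources used here.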

Additional observations from a re-analysis of the deposited data

How the results depend on the processing

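Of the 8 called values, 4 stayed called in every alternative run (Atf3 and Myc in Yap+Wwtr1 against negative siRNA, Jun in Yap and in Yap+Wwtr1 against Wwtr1 siRNA), and 44 of 52 values without a call passed in none. Alternatives were pseudocounts of 0.1 and 10, no filter or a mean of at least 100, TMM (computed here) and upper-quartile scaling, no trend, the compared groups alone, the replicate block and leaving out each library. The planned count models, edgeR and DESeq2, were not run. The replicate block over all 12 libraries changed no call of a factor. The block together with leaving out the Yap+Wwtr1 libraries gave 2 calls for Wwtr1 against negative siRNA and 3 for Yap against Wwtr1 siRNA (1 each in the fit as reported), and the part of each choice was not separated. With the compared groups alone, calls were 2 for Wwtr1 against negative siRNA (Jun and Egr1), 0 for Yap+Wwtr1 against Yap siRNA and 1 (Jun) for Yap+Wwtr1 against Wwtr1 siRNA. Leaving out 1 library, the number of factors called ran from 0 to 1 for Wwtr1 against negative siRNA, 1 to 3 for Yap against Wwtr1 siRNA and 0 to 1 for Yap+Wwtr1 against Yap siRNA. The cause was not tested. Over all genes, Yap against negative, Wwtr1 against negative and Yap against Wwtr1 siRNA had 570, 1064 and 1044 genes called as reported, 874, 1322 and 1253 with the block over all 12 libraries, and 1917, 2559 and 2711 with the block and no Yap+Wwtr1 libraries. The interaction had 122 as reported and 231 with the block over all 12 libraries. Without the trend, 294 genes were called for Yap against negative siRNA and 60 for the interaction, and Yap+Wwtr1 against Yap siRNA had 769 with the compared groups alone (1637 with all). Without 1 library, the counts ran from 111 to 766 for Yap, 548 to 1420 for Wwtr1 and 2746 to 4051 for Yap+Wwtr1 against negative siRNA, 434 to 1413 for Yap against Wwtr1 siRNA, 751 to 1870 and 1292 to 2340 for Yap+Wwtr1 against Yap and Wwtr1 siRNA (1637 and 2359 with all), and 31 to 160 for the interaction. Scaling moved the median log2 fold change of all genes by less than 0.1. With 3 libraries a group, small changes in the low genes Fosb and Fosl1 could not be seen.

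Values near 0 that changed sign were without a call in every such fit. For Yap against negative siRNA, Junb was -0.0026 with TMM and -0.018 with upper-quartile scaling, and for Yap+Wwtr1 against negative siRNA, Jund was -0.019 with upper-quartile scaling. Log2 fold changes without 1 library ran as follows. Against negative siRNA, Yap siRNA gave -0.26 to 0.13 for Fosb, -0.0097 to 0.22 for Fosl2, -0.067 to 0.096 for Junb, -0.032 to 0.25 for Atf3 and -0.070 to 0.25 for Egr1. Wwtr1 siRNA gave -0.0091 to 0.14 for Fosl2 and -0.23 to 0.048 for Myc, and Yap+Wwtr1 siRNA -0.12 to 0.14 for Fos and -0.057 to 0.11 for Jund. Yap against Wwtr1 siRNA gave -0.43 to 0.015 for Fosl1 and -0.065 to 0.16 for Fosl2. Yap+Wwtr1 against Yap siRNA gave -0.44 to 0.20 for Fosl1, -0.12 to 0.027 for Jun, -0.16 to 0.0017 for Jund and -0.014 to 0.32 for Egr1. Yap+Wwtr1 against Wwtr1 siRNA gave -0.62 to 0.024 for Fosl1 and -0.16 to 0.10 for Egr1. The interaction ran from -0.14 to 0.13 for Fos, -0.015 to 0.21 for Fosl2 and -0.27 to 0.069 for Egr1.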
